A study of Homo sapiens with 6 samples.

Results

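The urokinase, plasminogen and tissue factor system was followed through 9 genes, PLAU, PLAUR, PLAT, SERPINE2, SERPINB2, F3, TFPI, TFPI2 and THBD, matched by gene symbol among the 58735 genes of each deposited table. All 9 were found, each in 1 row. Expression had been measured by RNA-seq in SKOV3, an established human ovarian carcinoma line grown as adherent cells, from total RNA taken 24 h after cells received a small interfering RNA (siRNA). In the siHJURP group it was directed against HJURP, which encodes the chaperone that places a histone variant at centromeres, and in the control group (NC) it was a negative control. Each group had 3 libraries of this 1 line, and the labels name no other agent.

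Urokinase (PLAU) and tissue plasminogen activator (PLAT) are secreted serine proteases that cut plasminogen into plasmin, the protease that dissolves fibrin and degrades matrix. Urokinase does so at the cell surface, bound to its receptor (PLAUR), and serpins such as SERPINE2 and SERPINB2 trap the activators. Tissue factor (F3) is the membrane receptor of factor VII and starts coagulation. TFPI and TFPI2 are Kunitz-type inhibitors and thrombomodulin (THBD) redirects thrombin to protein C. Carcinoma cells, ovarian ones included, commonly express urokinase, its receptor and tissue factor.

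The libraries held 17116487 to 18027065 reads in genes. All levels are FPKM (fragments per kilobase of gene, scaled to library size), and values with ± are the mean and SD of 3 libraries. HJURP had 29.4 ± 0.51 in NC and 8.65 ± 0.010 after its siRNA, 70.6% lower, and the exact two-sided permutation p was 0.1, the smallest that 3 against 3 libraries can give. Of 12 markers of ovarian carcinoma and epithelium, 8 had a mean of at least 1 FPKM. Among them were PAX8 (60.4 FPKM in NC and 49.9 in siHJURP), KRT8 (182 and 132), KRT18 (88.3 and 48.8) and ERBB2 (264 and 343). MUC16, EPCAM, WT1 and CLDN3 lay under 1 FPKM on average. Of 12 markers of leukocytes, endothelium, fibroblasts and platelets, only the collagen genes COL1A1 and COL1A2 reached that level, CD3E had 0 reads in all 6 libraries, and the list summed to 14.4 to 19.7 FPKM in NC and 13.7 to 19.7 in siHJURP. siHJURP replicates 1 and 3 stood apart in interferon-induced genes, with 160 and 234 FPKM of IFI6, against 12.7 in siHJURP replicate 2 and 13.9 to 16.9 in NC. ISG15 (124 and 198 FPKM, with replicate 2 below the 16.6 of the lowest NC library) and IFIT1 (17.5 and 24.7 against 3.12 in replicate 2) divided the siHJURP libraries in the same way. IFIT1 had 1.63 to 2.38 FPKM in NC, so for this gene siHJURP replicate 2 lay above every NC library.

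siHJURP was compared with NC. Transcripts of the activators, the urokinase receptor and tissue factor fell. SERPINE2 and TFPI fell by less, by 16.5% and 18.1%. TFPI2 (21.5% lower by the means, with overlapping groups) and THBD (log2 fold change 0.15) did not pass the test. PLAU had 133 ± 1.4 FPKM in NC and 33.8 ± 1.2 in siHJURP, which was 74.7% lower. Of the 9 genes, 8 had a mean of at least 1 FPKM over the 6 libraries (and in each group by itself) and were tested, and SERPINB2 was left out as barely detected. A gene is called where the adjusted p of limma, a linear model fitted to log2(FPKM + 1) of all 13365 tested genes, is below 0.05.

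Of the 8 tested genes, 6 were called lower and 0 higher, and 2 were not called. Of all tested genes 37.9% were called, 20.3% lower and 17.6% higher. That balance moved with the scaling: 2355 genes were higher and 2713 lower in the deposited FPKM, 3155 and 2144 after rescaling to TPM, and 3102 and 2198 when each library was scaled by its own reads. The 6 called genes kept their call under both. The 3 values of a group did not overlap those of the other for 52.2% of all tested genes, with siHJURP lower for 26.8%, and for 6 of the 8, all lower. The median log2 fold change of the 8 was -0.51, beside -0.01 over all tested genes. Of the 8 tested markers of ovarian carcinoma and epithelium, 5 were called lower and 2 higher, with a median log2 fold change of -0.31. With single libraries left out, 4 to 5 of these markers were called lower and 1 to 2 higher. In bulk RNA, fewer cells with a transcript and less of it per cell cannot be told apart.

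**Figure D1:**
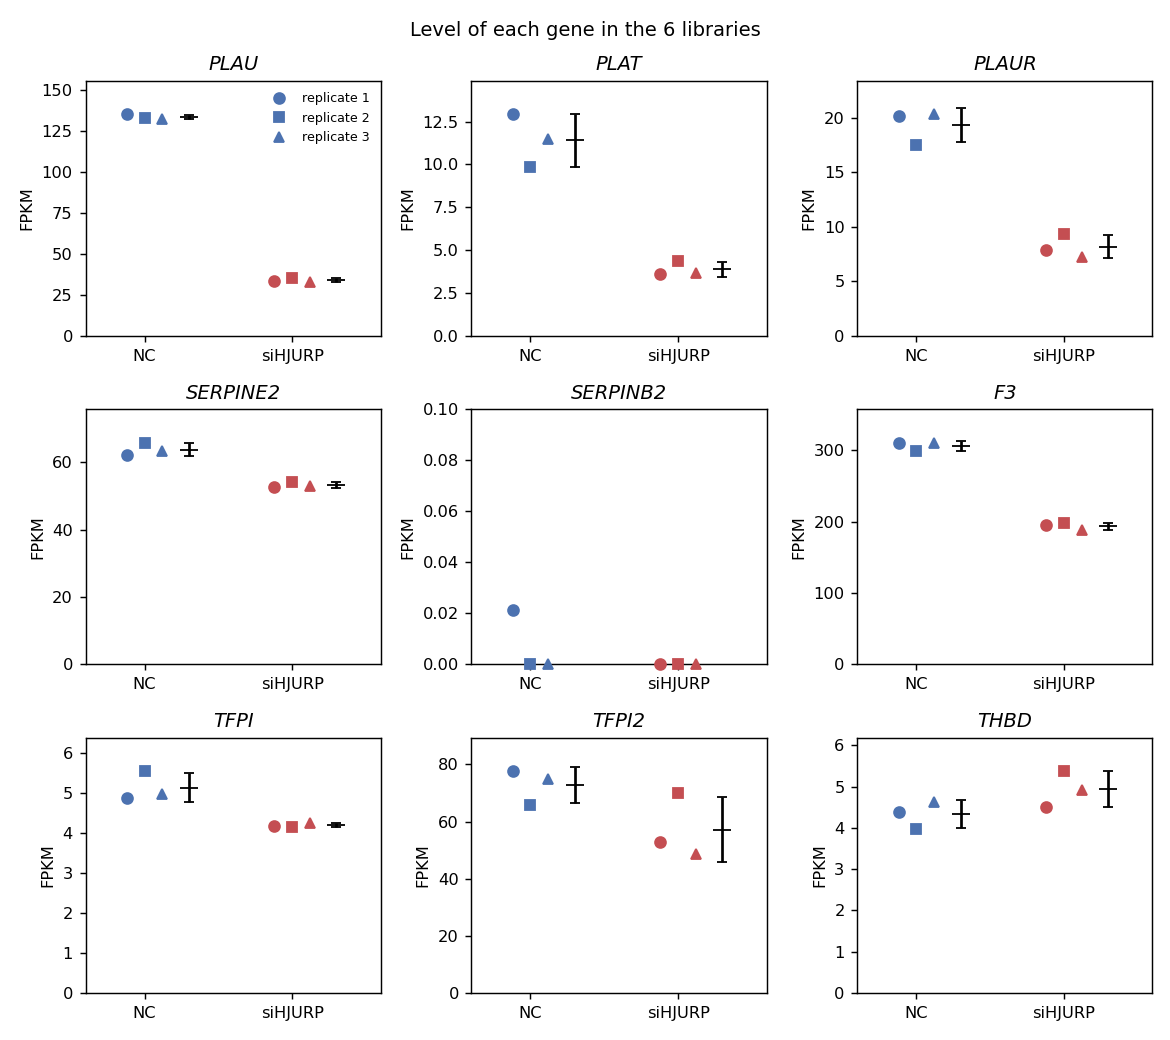
FPKM of the 9 genes (vertical axes, each from 0) in the 3 NC libraries (blue) and the 3 siHJURP libraries (red), with a marker shape per replicate and the mean ± SD in black where no library is at 0. PLAU, PLAT, PLAUR, SERPINE2, F3 and TFPI are lower in each siHJURP library than in any NC library, whereas TFPI2 and THBD overlap and SERPINB2 has 1 read in a single NC library.

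The promoters of 4 genes are printed: F3 and PLAUR, which fell, PLAU, which fell most, and TFPI2, whose level differed between the siHJURP libraries. RefSeq promoter windows (GRCh38.p14, from 250 bases before to 50 after a start site) were matched by symbol for 7 of the 9 genes. Capitals mark the AP-1 motif TGANTCA, which reads the same on both strands, and the NF-kB motif GGANTTTCC, searched on both strands. The windows are chr1:94541710-94542009 on the minus strand for F3, chr19:43670120-43670419 on the minus strand for PLAUR, chr10:73910882-73911181 on the plus strand for PLAU and chr7:93890704-93891003 on the minus strand for TFPI2.
F3: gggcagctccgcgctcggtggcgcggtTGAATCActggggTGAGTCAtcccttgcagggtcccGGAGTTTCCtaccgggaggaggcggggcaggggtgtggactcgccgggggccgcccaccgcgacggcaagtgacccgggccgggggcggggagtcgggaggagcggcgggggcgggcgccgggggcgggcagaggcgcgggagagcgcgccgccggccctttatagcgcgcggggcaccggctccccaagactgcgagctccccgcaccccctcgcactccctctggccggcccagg
PLAUR: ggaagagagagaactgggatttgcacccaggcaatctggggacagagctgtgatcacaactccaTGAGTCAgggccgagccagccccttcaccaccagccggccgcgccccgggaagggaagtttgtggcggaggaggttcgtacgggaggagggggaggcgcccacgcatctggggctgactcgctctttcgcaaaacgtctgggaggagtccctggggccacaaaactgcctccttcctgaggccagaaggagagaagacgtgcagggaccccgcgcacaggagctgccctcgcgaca
PLAU: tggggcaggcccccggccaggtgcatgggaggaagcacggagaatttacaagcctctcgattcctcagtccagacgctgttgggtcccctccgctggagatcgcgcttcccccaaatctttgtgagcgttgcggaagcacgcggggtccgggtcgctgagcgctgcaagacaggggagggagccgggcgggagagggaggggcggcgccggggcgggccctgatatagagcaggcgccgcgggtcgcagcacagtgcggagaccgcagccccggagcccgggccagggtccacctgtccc
TFPI2: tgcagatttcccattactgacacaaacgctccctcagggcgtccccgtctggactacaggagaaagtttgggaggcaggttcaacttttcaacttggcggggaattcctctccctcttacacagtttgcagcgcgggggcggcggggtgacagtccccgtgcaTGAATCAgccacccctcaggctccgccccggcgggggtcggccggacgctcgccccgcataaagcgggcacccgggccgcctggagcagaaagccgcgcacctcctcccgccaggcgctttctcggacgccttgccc

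The F3 window held 2 AP-1 motifs that did not overlap, TGAATCA and TGAGTCA, beginning 223 and 210 bases upstream of the start site, and 1 NF-kB motif, GGAGTTTCC, beginning 187 bases upstream. The PLAUR window held 1 AP-1 motif, TGAGTCA, 186 bases upstream, and the TFPI2 window 1, TGAATCA, 87 bases upstream. SERPINB2, which is barely transcribed here, had TGAATCA 102 bases upstream. Neither motif was found in the windows of PLAU (at either of its 2 RefSeq start sites), SERPINE2 or TFPI. The urokinase gene is known for an AP-1 and ETS enhancer farther upstream, which lies outside the window. Among 35116 RefSeq windows of 300 bases, 7.71% held TGANTCA and 1.64% held GGANTTTCC. A match is a sequence description and shows no binding.

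PLAU (ENSG00000122861, chromosome 10, 73909177 to 73917497 in hg38), the main activator of pericellular plasminogen, had 135, 133 and 132 FPKM in NC replicates 1 to 3. It had 33.2, 35.2 and 33.0 in siHJURP replicates 1 to 3. The 3 values of a group lay close together and far from those of the other group, and rested on 6581 to 6817 reads per NC library and 1752 to 1913 per siHJURP library. The log2 fold change was -1.95 (SE 0.037, adjusted p = 1.36e-06), the third lowest of all tested genes. C10orf55 overlaps PLAU on the other strand and had at most 45 reads. Whether the counting used strand is not stated, so reads of the pair cannot be told apart.

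PLAT (ENSG00000104368, chromosome 8, 42175233 to 42207724), the activator best known from the endothelium and from clot lysis, had 12.9, 9.83 and 11.5 FPKM in NC. It had 3.61, 4.37 and 3.65 in siHJURP, so every siHJURP library lay below every NC library. The mean fell 2.94-fold (log2 -1.34, SE 0.10, adjusted p = 0.000149). PLAT was the lower of the activators in both groups. PLAU had 11.7 times its mean FPKM in NC and 8.71 times in siHJURP.

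PLAUR (ENSG00000011422, chromosome 19, 43646095 to 43670547), the lipid-anchored receptor that holds urokinase at the membrane, had 20.2, 17.5 and 20.3 FPKM in NC. In siHJURP it had 7.90, 9.34 and 7.27, again with no overlap. It fell 2.36-fold (log2 -1.15, SE 0.094, adjusted p = 0.000189). siHJURP replicate 2, which lacked the high levels of the interferon genes, was the highest of its group for SERPINE2, F3, TFPI2 and THBD and the lowest for TFPI. It was also the highest for PLAU, PLAT and PLAUR. With siHJURP replicates 1 and 3 both left out, the log2 fold changes were -1.89, -1.20 and -0.97 and the calls held. In that fit the lone siHJURP library is assumed to vary like the others.

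The inhibitors of the activators differed from one another in level. SERPINE2 (ENSG00000135919, chromosome 2, 223975112 to 224039319), also called protease nexin-1, which inhibits urokinase, plasmin and thrombin, had 62.3, 65.8 and 63.4 FPKM in NC. It had 52.6, 54.2 and 53.1 in siHJURP, below each NC library, a fall of 16.5% (log2 -0.26, SE 0.035, adjusted p = 0.00165). Its call was lost with siHJURP replicates 1 and 3 both left out (log2 -0.23, adjusted p = 0.0653). SERPINB2 (ENSG00000197632, chromosome 18, 63871692 to 63903890), the urokinase inhibitor of macrophages and placenta, had 1 read in NC replicate 1 and 0 in the other 5 libraries. With 3 reads as the limit that a count of 0 allows, levels up to 0.0592 to 0.0648 FPKM could not be seen in those 5 libraries. This is a limit for counting error only.

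F3 (ENSG00000117525, chromosome 1, 94529225 to 94541800), which encodes tissue factor, was the most abundant of the 9 transcripts per length, with 310, 299 and 311 FPKM in NC, and ranked 59th of the tested genes by its mean level there. It had 195, 198 and 188 FPKM in siHJURP, from 9730 to 10470 reads per library. The groups did not overlap, and the mean fell by 36.8% (log2 -0.66, SE 0.037, adjusted p = 4.63e-05). F3 remained the most abundant of the 9 in siHJURP.

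TFPI (ENSG00000003436, chromosome 2, 187464230 to 187565760), the direct inhibitor of the tissue factor and factor VII complex, had 4.86, 5.54 and 4.97 FPKM in NC and 4.18, 4.16 and 4.25 in siHJURP. The siHJURP values lay closely together, just under the lowest NC library, 18.1% lower by the means (log2 -0.24, SE 0.057, adjusted p = 0.0163). TFPI was no longer called without siHJURP replicate 1 (adjusted p = 0.0538) and without siHJURP replicates 1 and 3 together (0.159). AC007319.1 overlaps TFPI on the other strand and had at most 16 reads, against at least 888 for TFPI.

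TFPI2 (ENSG00000105825, chromosome 7, 93885396 to 93890991), a secreted matrix-bound inhibitor of plasmin and trypsin, had 77.6, 65.8 and 75.1 FPKM in NC. In siHJURP it had 52.9, 70.0 and 48.7, so replicate 2 lay within the NC range and replicates 1 and 3 below it. The group comparison was not called (log2 -0.36, 95% interval -0.67 to -0.04, adjusted p = 0.0731). Without siHJURP replicate 2 the log2 fold change was -0.51 (adjusted p = 0.00551), and with that replicate as the only siHJURP library it was -0.05 (0.767). Replicates 1 and 3 were the libraries with high IFI6, ISG15 and IFIT1, and the part of the interferon genes in the TFPI2 level was not tested. It was called with limma's voom on the whole reads (0.00774) and with a filter at a mean of 5 FPKM (0.0413).

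THBD (ENSG00000178726, chromosome 20, 23045633 to 23049741), the thrombin receptor that turns thrombin towards protein C, had 4.39, 3.97 and 4.63 FPKM in NC and 4.51, 5.38 and 4.92 in siHJURP. Its groups overlapped, siHJURP replicate 1 lying below NC replicate 3. Its log2 fold change was 0.15 with a 95% interval of -0.02 to 0.33 (adjusted p = 0.147). It was the only one of the 8 with a positive fold change, from 284 to 407 reads per library.

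**Figure D2:**
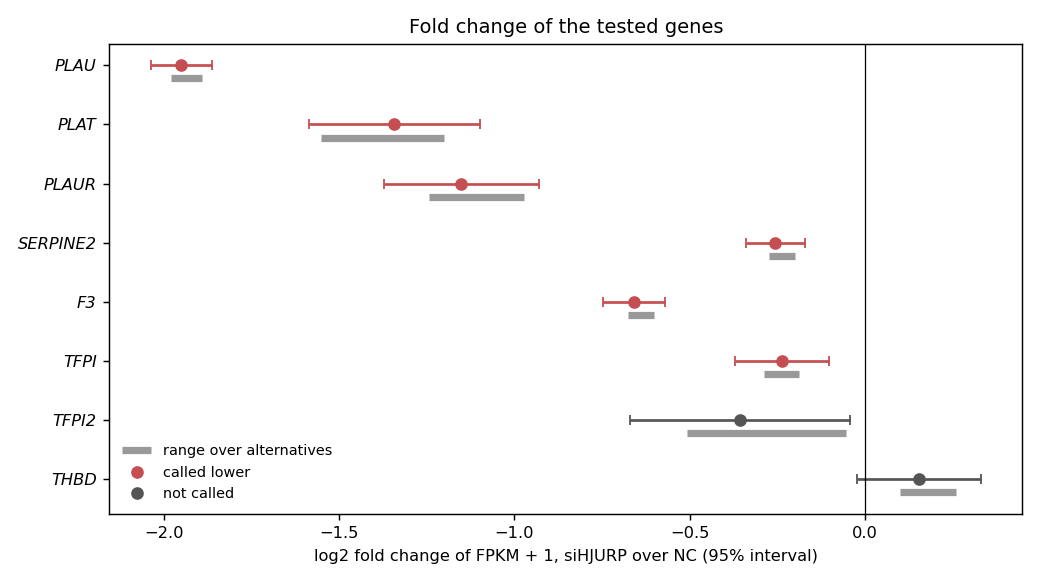
Log2 fold change of FPKM + 1, siHJURP over NC (horizontal axis), of the 8 tested genes, with 95% intervals from limma. Grey bars give the lowest and highest value over the processing alternatives. PLAU lies at -1.95, PLAT and PLAUR below -1, F3 at -0.66 and the inhibitors SERPINE2 and TFPI at -0.26 and -0.24, and the interval of THBD includes 0.

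The order of the levels changed between the groups. In NC, F3 was followed by PLAU, then TFPI2 and SERPINE2, whose ranges overlapped slightly (65.8 to 77.6 and 62.3 to 65.8 FPKM), then PLAUR, PLAT, TFPI and THBD. In siHJURP, TFPI2 and SERPINE2 stood above PLAU, again with overlapping ranges. THBD stood above TFPI and PLAT, and the last pair overlapped (4.16 to 4.25 and 3.61 to 4.37 FPKM).

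Set per library, the FPKM ratio of PLAU to SERPINE2 was 2.17, 2.02 and 2.09 in NC and 0.632, 0.649 and 0.622 in siHJURP. The urokinase transcript exceeded that of this inhibitor, per length, in each NC library and lay below it in each siHJURP library. The ratio of F3 to TFPI was 60.1 ± 5.3 in NC and 46.2 ± 1.7 in siHJURP, and that of F3 to THBD was 70.9 ± 4.1 and 39.4 ± 3.5. PLAU to PLAUR went from 6.93 ± 0.57 to 4.17 ± 0.39, and F3 to TFPI2 from 4.22 ± 0.29 to 3.46 ± 0.56. The groups did not overlap in these 5 ratios. In each ratio the gene on top had the lower log2 fold change of the pair, as given above. The direction of a ratio is therefore no separate result, and the share over other gene pairs was not computed. Each exact two-sided permutation p was 0.1, also after Benjamini-Hochberg adjustment over the 5, which is the smallest this design allows, and the ratios share genes.

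**Figure D3:**
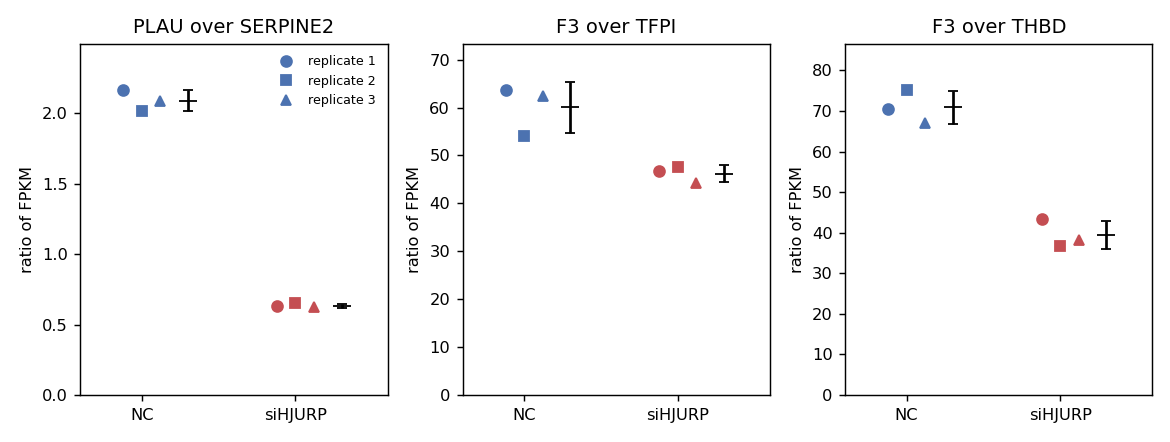
FPKM ratio (vertical axes, from 0) of PLAU to SERPINE2, F3 to TFPI and F3 to THBD in each library, NC in blue and siHJURP in red, with the mean ± SD in black. The 3 siHJURP libraries lie below the 3 NC libraries in each panel, with PLAU to SERPINE2 going from 2.09 to 0.634 on average.

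The wider system was described by lists of other genes. Of 7 genes of plasminogen and its receptors, 6 were tested and 5 were called lower (20.3% of all tested genes), with a median log2 fold change of -0.32. The count was 3 without siHJURP replicate 1, without replicate 3 or without both, and also without a filter and with total reads. PLG, which encodes plasminogen itself, had 0 reads in all 6 libraries. ANXA2 and S100A10, which form the annexin A2 complex that binds plasminogen, fell from 186 ± 7.5 to 131 ± 2.0 FPKM (log2 -0.50, adjusted p = 0.000173) and from 161 ± 12 to 110 ± 4.7 (log2 -0.54, adjusted p = 0.000719). KRT8, a keratin that can bind plasminogen at the surface, fell by 0.46 and the enolase ENO1 by 0.18 on the log2 scale. The ENO1 call was lost when scaled by total reads (adjusted p = 0.0599), without a filter (0.207), and without siHJURP replicate 1 (0.0832), 3 (0.058) or both (0.277).

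Of 13 partners and clearance receptors of the urokinase receptor, 12 were tested, 6 were called lower and 1 higher (20.3% and 17.6% of all tested genes), and the median log2 fold change was -0.22. EGFR, a signalling partner of the receptor, fell from 32.3 ± 2.3 to 11.6 ± 0.51 FPKM (log2 -1.39, adjusted p = 2.21e-05). Of the integrins, ITGB3 fell from 4.06 ± 0.22 to 1.96 ± 0.11 FPKM (log2 -0.77), ITGA5 by 0.50 and ITGA3 by 0.32 on the log2 scale. ITGAV, the partner chain of ITGB3 in the vitronectin receptor, had 25.1 ± 0.39 and 24.8 ± 1.1 FPKM and was not called (95% interval of log2 -0.11 to 0.08). The riser was IGF2R, which binds urokinase receptor and plasminogen, from 22.4 ± 2.6 to 29.9 ± 1.4 FPKM (log2 0.40, adjusted p = 0.00855). The count of higher genes was 2 with TPM and without NC replicate 2, and 0 with siHJURP replicates 1 and 3 both left out.

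Of 13 genes, some intracellular, listed with the inhibitors of plasmin, activators and coagulation proteases, 4 were tested. Of these, 2 were called lower (20.3% of all tested genes). They were the intracellular serpins SERPINB9, an inhibitor of granzyme B, from 25.2 ± 1.4 to 13.2 ± 0.29 FPKM (log2 -0.88), and SERPINB8 (log2 -0.27). SERPINI1 and SERPINB6, also tested, were not called (log2 0.17 and -0.07). SERPINF2, the plasmin inhibitor of blood, lay at no more than 0.22 FPKM in any library. The call of SERPINB8 was lost with siHJURP replicates 1 and 3 both left out (log2 -0.21, adjusted p = 0.128).

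Of 21 genes of coagulation factors, the protein C pathway and thrombin receptors, 10 were tested, 4 were called lower and 2 higher, and the median log2 fold change was -0.16. The share called higher was near the 17.6% of all tested genes, beside 20.3% called lower. F7, the ligand of tissue factor, and F10, which their complex activates, lay at no more than 0.0145 and 0.0755 FPKM in any library. The protease-activated receptor F2RL1, which the tissue factor complex can cleave, fell from 23.8 ± 0.49 to 18.7 ± 0.59 FPKM (log2 -0.33, adjusted p = 0.000785). F2R, the main thrombin receptor, had 22.9 ± 0.70 and 22.5 ± 0.66 FPKM and was not called (95% interval of log2 -0.12 to 0.07). PROCR, the receptor of protein C, fell by 0.30 on the log2 scale, and PROS1, its cofactor protein S, rose by 0.21 and F2RL2 by 0.29. With siHJURP replicates 1 and 3 both left out, the log2 fold changes of PROCR, PROS1 and F2RL2 were -0.26, 0.20 and 0.33 and their calls were lost (adjusted p = 0.0814, 0.153 and 0.109). The list then had 1 gene called lower and 0 higher.

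**Figure D4:**
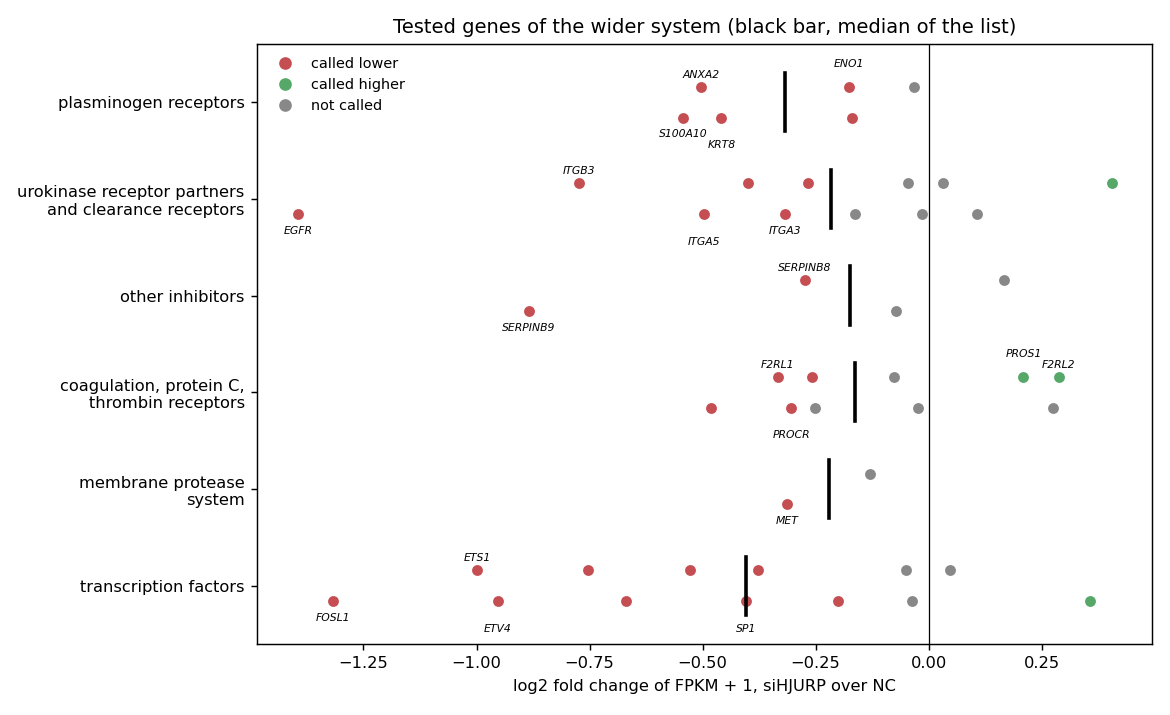
Log2 fold change of FPKM + 1, siHJURP over NC (horizontal axis), of each tested gene in 6 lists of the wider system, with called genes in colour and black bars at the list medians. The labelled genes are the 4 called ones with the lowest adjusted p in each list, and EGFR and FOSL1 lie lowest at -1.39 and -1.32.

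Of 14 transcription factors with known sites in the urokinase or tissue factor promoter, 13 were tested, 9 were called lower and 1 higher (20.3% and 17.6% of all tested genes), and the median log2 fold change was -0.40, the lowest of the 6 lists. FOSL1, an AP-1 subunit, fell from 167 ± 8.7 to 66.5 ± 5.3 FPKM (log2 -1.32, adjusted p = 2.87e-05). ETS1 fell from 36.6 ± 3.0 to 17.8 ± 0.37 FPKM, 2.06-fold, ETV4, another ETS factor, by 0.95 and SP1 by 0.40 on the log2 scale. The riser was the AP-1 subunit JUND (log2 0.36, adjusted p = 0.0148), named after its value was seen. It was not called without siHJURP replicate 1, without replicate 3, without both or without a filter, where 0 genes of the list were higher, and 2 were higher without replicate 2. The NF-kB subunits NFKB1 and RELA were not called, at log2 -0.05 and -0.04. Their part in the levels of PLAU, PLAUR and F3 was not tested.

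By Pearson correlation of log2(FPKM + 1) over the 6 libraries, S100A16, SZRD1 and RANBP9 were most like PLAU, and GLYR1, SLC9A3R1 and PAPOLA most like F3. Their r was 0.9998, 0.9998 and 0.9995 for PLAU and 0.9997, 0.9996 and 0.9995 for F3. S100A16, a calcium-binding protein, had 454 ± 6.3 and 92.2 ± 3.5 FPKM in NC and siHJURP, and PAPOLA, a poly(A) polymerase, 22.4 ± 0.56 and 10.4 ± 0.33. The 6 points form 2 groups of 3 libraries, so an r over them carries the difference between the groups, and 326 tested genes exceeded an r of 0.99 with PLAU and 293 with F3.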

How the data were processed

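RNA-seq covered 6 libraries, 3 per group. The authors' deposited values are FPKM, in 1 table per library with gene coordinates and lengths, and the build hg38, featureCounts 1.5.0-p3 and HISAT2 2.0.5 are named per the submitters' processing notes. No strand setting, siRNA sequence or sequencing batch is given in the sources used here. Whether the 3 libraries are separate cultures is not clear from the design text, so p-values measure the spread between these libraries, which may be partly technical. The 9 genes have the coordinates of GENCODE 29.

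FPKM times gene length came to whole reads in 100% of values, within 0.01 reads. The library size in the FPKM was 0.985 to 0.989 times the reads in NC and 1.02 to 1.03 times in siHJURP.

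Genes with a mean of at least 1 FPKM were tested by limma 3.58.1 (R 4.3.3), fitted to log2(FPKM + 1) with an intensity trend, two-sided, and Benjamini-Hochberg adjustment over all 13365 genes. A log2 fold change on this scale understates the change of low genes. The code of the fit was checked on simulated data with few changed genes and no split of the siHJURP libraries, unlike these data. Tables used Python 3.11.15. Alternatives were a pseudocount of 0.1, no filter or a mean of 5 FPKM, TPM, total reads, median-ratio scaling, no trend, voom on whole reads, a replicate block, and libraries left out.

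The genes, lists and motifs were chosen with earlier results of these data known. Beside the 9 genes and HJURP, the text names up to 4 called genes of each list by adjusted p, genes under the filter named for their role, and the 3 genes most like PLAU and F3. IGF2R, ITGAV, SERPINI1, SERPINB6, F2R, JUND, NFKB1, RELA, ERBB2 and the interferon genes were named after their values were seen.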

Additional observations from a re-analysis of the deposited data

How the results depend on the processing

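PLAU, PLAT, PLAUR, F3 and HJURP kept their direction and call under all 16 alternatives, and THBD kept its direction, uncalled, under the 15 in which it was tested. PLAU ranged from -1.98 to -1.89 (log2), PLAT from -1.55 to -1.20, PLAUR from -1.24 to -0.97, F3 from -0.68 to -0.60 and THBD from 0.10 (without siHJURP replicate 2) to 0.26 (without replicates 1 and 3), with 0.23 in TPM. With siHJURP replicates 1 and 3 left out together, 1844 genes were called rather than 5068, and SERPINE2 (log2 -0.23, adjusted p = 0.0653) and TFPI (-0.25, 0.159) lost their call, a fit with 4 libraries. Voom on whole reads called 5747 genes. With single libraries left out, called genes numbered 3719 to 4724. TFPI then ranged from -0.27 to -0.19, losing its call without siHJURP replicate 1, and TFPI2 from -0.51 to -0.25, called without siHJURP replicate 2. TFPI2 was also called with voom (-0.36, adjusted p = 0.00774) and with a filter at 5 FPKM (-0.36, 0.0413). The cause was not tested.

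The replicate block gave 4527 called genes and changed no call of the 8 tested genes (PLAU -1.95, adjusted p = 0.000149; TFPI2 0.116). The values gave no sign that the numbers pair the libraries. Deviations from the group means correlated at -0.01 to 0.02 for same-numbered libraries and at -0.03 to 0.03 for the others. A weak shared culture or day could go unseen with so few libraries. SERPINB2 had at most 1 read, so a fall in it was not detectable at this depth. TFPI and THBD could not be tested with the filter at 5 FPKM.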

Other observations

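The membrane serine proteases ST14 and HPN were scarcely detected. Of 9 genes of membrane serine proteases, Kunitz inhibitors and the HGF receptor, 2 were tested. ST14, which encodes matriptase, lay at no more than 0.051 FPKM in any library and HPN, which encodes hepsin, at no more than 0.0340. MET, the receptor of hepatocyte growth factor (whose precursor urokinase can cleave), fell from 44.6 ± 2.5 to 35.6 ± 1.0 FPKM (log2 -0.31, limma adjusted p = 0.00274), a call lost with siHJURP replicates 1 and 3 both left out (0.0652) and kept in the other alternatives (7.86e-05 to 0.0147). SPINT2, a Kunitz inhibitor, had 16.2 ± 0.75 FPKM in NC and 14.7 ± 0.21 in siHJURP, with no overlap, and was not called (log2 -0.13, adjusted p = 0.0531). HGF itself had 1 read in siHJURP replicate 3 (0.0057 FPKM) and 0 in the other libraries.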
